A study of Mus with 7 samples.

Results

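Il1a, Il1b, Il1rn, Il18, Nlrp3, Pycard, Casp1, Casp4 and Gsdmd, the interleukin-1 family ligands and inflammasome genes described here, are 9 of the 31053 genes in the count files. They were chosen by symbol and not by a limit on their values, with earlier results of these data known. They were measured in fetal liver-derived macrophages (FLMs), a self-renewing culture grown with 30 ng/mL GM-CSF from the livers of wild-type C57BL/6J mouse fetuses and used at passage 10 to 20. The 7 conditions were sequenced in 1 droplet-based single cell library each, so no condition has a measured spread between libraries. Con cells were collected in 10% FBS before any treatment. The other cells were held for 24 h in 0.25% FBS with BSA at 8.3 µM, which either carried 25 µM docosahexaenoic acid (DHA, an omega-3 fatty acid) or was given alone (Veh). They were collected either at once (Veh.LPS.0 and DHA.LPS.0) or after the medium was replaced by one with 20 ng/mL Salmonella lipopolysaccharide (LPS) for 1 h (Veh.LPS.1 and DHA.LPS.1) or 4 h (Veh.LPS.4 and DHA.LPS.4). The design asks how serum reduction, LPS and DHA pretreatment change these transcripts. Con differs from Veh.LPS.0 in serum, BSA and time in culture at once, which cannot be told apart.

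Interleukin-1 signalling in macrophages is controlled in steps. LPS, sensed through TLR4, switches on transcription of Il1b, Il1a and Nlrp3. The Il1b and Il18 products are made as inactive precursors, which caspase-1 cuts once a sensor such as NLRP3 has assembled an inflammasome through the adaptor ASC, the product of Pycard. Mouse caspase-4, often named caspase-11, binds LPS in the cytosol, and both caspases cut gasdermin D, which then forms pores in the cell membrane. Il1rn encodes a ligand that occupies the interleukin-1 receptor without signalling. The files hold RNA, and neither cleavage nor release of any of these proteins was measured here.

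All levels are in CPM, the unique molecular identifiers (UMIs, 1 per captured RNA molecule) of a gene summed over a library's cells and given per 1000000 UMIs of that library. Between 692 and 3073 cells a library held more than 20000 UMIs, at least 2000 genes and under 20% mitochondrial UMIs, 11640 cells in all, with totals of 22045775 to 125716982 UMIs and medians of 29369 to 56239 UMIs a cell. A mitochondrial share of 20% or more removed 29.0% to 54.7% of the barcodes of Con and Veh but 76.4%, 74.4% and 80.0% of those of DHA at 0, 1 and 4 h, so every DHA value rests on a smaller remainder of its library. Of the kept barcodes, 16 were found in more than 1 library, at most 4 in any pair of libraries. Each of the 11640 cells held at least 3 of 9 macrophage markers, and none held 3 markers of neutrophils, mast cells, dendritic cells, erythroid cells, hepatocytes, lymphoid cells or stromal cells. Neutrophils also express Il1b, and their summed marker level was 0.0571 to 7.53 CPM, nearly all of it S100a8, with S100a9, Ly6g and Ngp at 0. All cells were macrophages, so the level of free RNA could not be read from a cell type without these genes, and the part of free RNA in the shares of cells with a UMI was not tested. Intervals in brackets are exact 95% intervals and cover counting error only. They treat UMIs as independent, which they were not for Il1a and Il1b, whose UMIs lay in few cells. Nor were they for Il1rn or, with LPS, for Nlrp3, whose UMIs varied between cells by more than counting error. The intervals of these genes are therefore too narrow. So are those of Casp4 in Con and DHA.LPS.0, where the variance of its UMIs over cells thinned to 20000 UMIs was 5.71 and 1.72 times the mean.

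Il1b (ENSMUSG00000027398, mm10 chr2:129364569-129371164) encodes the main secreted interleukin-1 of macrophages. It had 0 UMIs in Con, Veh.LPS.0 and DHA.LPS.0, which allows levels of up to 0.0239, 0.0304 and 0.0856 CPM (3 counts per library). Its level was 10.6 CPM (9.98 to 11.3) in Veh.LPS.1 and 3.08 CPM (2.50 to 3.75) in DHA.LPS.1. It was 792 CPM (785 to 799) in Veh.LPS.4 and 485 CPM (476 to 494) in DHA.LPS.4. Transcripts were thus found in the LPS libraries alone, and the DHA library was the lower of the pair at both hours. With the 0 of Veh.LPS.0 read as at most 3 counts, Veh.LPS.4 stood at least 26071-fold higher in CPM. It was 74.5-fold (70.0 to 79.4) higher than Veh.LPS.1.

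Il1a (ENSMUSG00000027399, chr2:129299609-129310186) lies 54382 bases from Il1b and encodes an interleukin-1 that acts without caspase-1 cleavage and as an alarm signal of damaged cells. A single Il1a UMI was found in Con and none in Veh.LPS.0 or DHA.LPS.0. The level was 5.32 CPM (4.87 to 5.81) in Veh.LPS.1, 5.41 CPM (4.63 to 6.28) in DHA.LPS.1, 191 CPM (187 to 194) in Veh.LPS.4 and 139 CPM (135 to 144) in DHA.LPS.4. The pair of 1 h libraries overlapped within their intervals, and the pair of 4 h libraries did not. Veh.LPS.4 was at least 6285-fold higher than Veh.LPS.0 and 35.9-fold (32.8 to 39.3) higher than Veh.LPS.1.

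Il1rn (ENSMUSG00000026981, chr2:24336860-24351491), the receptor antagonist, was present before LPS. Its level was 29.3 CPM (28.4 to 30.3) in Con, 64.5 CPM (63.0 to 66.1) in Veh.LPS.0 and 80.2 CPM (77.2 to 83.2) in DHA.LPS.0. It was 129 CPM (127 to 131) in Veh.LPS.1 and 183 CPM (179 to 188) in DHA.LPS.1. At 4 h it reached 913 CPM (905 to 920) in Veh.LPS.4 and 1082 CPM (1068 to 1096) in DHA.LPS.4, the highest level of any of the 9 genes in any library. No 2 of the 7 intervals, which leave out the spread between cells, overlapped, and DHA was the higher of the pair at each hour. Il1rn was 14.1-fold (13.8 to 14.5) above Veh.LPS.0 in Veh.LPS.4, and Veh.LPS.0 was 2.20-fold (2.11 to 2.29) above Con.

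Il18 (ENSMUSG00000039217, chr9:50554700-50581841), whose product drives interferon-gamma production by lymphocytes, took another course. Its level was 21.7 CPM (20.9 to 22.5) in Con, 42.1 CPM (40.8 to 43.4) in Veh.LPS.0 and 39.6 CPM (37.6 to 41.8) in DHA.LPS.0. It was 38.4 CPM (37.2 to 39.7) in Veh.LPS.1, 34.0 CPM (32.0 to 36.1) in DHA.LPS.1, 29.9 CPM (28.6 to 31.4) in Veh.LPS.4 and 21.5 CPM (19.6 to 23.5) in DHA.LPS.4. It was highest in Veh.LPS.0, lower at each later hour of LPS, and the intervals of DHA.LPS.4 and Con overlapped. Scaling bears on this decline: with TMM factors, which centre the bulk of the genes, the ratio of Veh.LPS.4 to Veh.LPS.0 moved from a log2 value of -0.49 toward 0, and the smallest size under any planned scaling or filter was -0.04.

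Nlrp3 (ENSMUSG00000032691, chr11:59541569-59566955), the sensor, was present before LPS and, in CPM, highest at 1 h. Its level was 33.2 CPM (32.2 to 34.3) in Con, 28.8 CPM (27.8 to 29.9) in Veh.LPS.0 and 23.5 CPM (21.9 to 25.2) in DHA.LPS.0. It was 595 CPM (590 to 600) in Veh.LPS.1, 539 CPM (531 to 547) in DHA.LPS.1, 443 CPM (438 to 449) in Veh.LPS.4 and 472 CPM (463 to 481) in DHA.LPS.4. Every LPS library was above every library without LPS, and in CPM the 1 h libraries were above the 4 h libraries. Scaling bears on that order. For Veh.LPS.4 against Veh.LPS.1 the log2 ratio was -0.42, and its smallest size under any planned scaling or filter was -0.09. Against DHA.LPS.0 the log2 ratio was 4.52 in DHA.LPS.1 and 4.33 in DHA.LPS.4, and the highest planned values were 4.64 and 4.67. DHA.LPS.4 was not set against DHA.LPS.1 directly, so the order of these DHA libraries holds for CPM only. Veh.LPS.1 was 20.7-fold (19.9 to 21.5) higher than Veh.LPS.0, and a UMI was found in 59.5% of the cells of Veh.LPS.0 and in 99.2% of those of Veh.LPS.1.

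Pycard (ENSMUSG00000030793, chr7:127991373-127993867), the adaptor that joins NLRP3 to caspase-1, had by far the lowest level of the inflammasome genes. It had 0.636 CPM (0.505 to 0.792) in Con, 0.466 CPM (0.341 to 0.621) in Veh.LPS.0 and 0.343 CPM (0.177 to 0.598) in DHA.LPS.0. It had 3.35 CPM (2.99 to 3.74) in Veh.LPS.1, 3.68 CPM (3.04 to 4.41) in DHA.LPS.1, 0.290 CPM (0.169 to 0.464) in Veh.LPS.4 and 0.454 CPM (0.218 to 0.834) in DHA.LPS.4. Both 1 h libraries stood above the other 5, whose lowest and highest levels were 0.290 and 0.636 CPM. The ratio of Veh.LPS.1 to Veh.LPS.0 was 7.20 (5.27 to 10.0) and that of DHA.LPS.1 to DHA.LPS.0 was 10.7 (5.92 to 21.4), from 317 and 117 UMIs at 1 h. A UMI was found in 1.45% to 13.0% of cells at their full depth, so the gene never met the limit of 25% of cells used for counting.

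Casp1 (ENSMUSG00000025888, chr9:5298517-5307281), the protease that cuts the Il1b and Il18 precursors, varied least. Its level was 38.7 CPM (37.6 to 39.8) in Con, 37.4 CPM (36.2 to 38.6) in Veh.LPS.0, 34.2 CPM (33.0 to 35.4) in Veh.LPS.1 and 27.0 CPM (25.7 to 28.4) in Veh.LPS.4. With DHA it was 44.3 CPM (42.1 to 46.5), 40.6 CPM (38.4 to 42.9) and 37.2 CPM (34.7 to 39.9) at 0, 1 and 4 h. The 3 DHA levels were each above the Veh level of the same hour. With no limit on barcodes the log2 ratio of DHA to Veh was 0.02, -0.003 and 0.15 at these hours. The 1 h value thus changed sign, in a setting where the median of all genes compared was -0.25, -0.31 and -0.18. Among barcodes removed for their mitochondrial share, Casp1 had 43.8, 37.5 and 27.2 with DHA and 36.1, 31.6 and 19.7 in Veh. Those values are CPM of the UMIs outside mitochondrial genes.

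Casp4 (ENSMUSG00000033538, chr9:5308849-5336791) starts 1567 bases after Casp1. It had 5.70 CPM (5.29 to 6.14) in Con, 15.9 CPM (15.1 to 16.7) in Veh.LPS.0, 20.3 CPM (19.4 to 21.2) in Veh.LPS.1 and 52.6 CPM (50.8 to 54.5) in Veh.LPS.4. With DHA it had 22.9 CPM (21.3 to 24.5), 29.4 CPM (27.6 to 31.4) and 52.4 CPM (49.5 to 55.5) at the same hours. It was the single inflammasome gene that was higher in Veh.LPS.0 and DHA.LPS.0 than in Con and higher again at each hour of LPS in both arms. Of its 717 UMIs in Con, 43 and 23 came from 2 cells, and the next cell held 6.

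Gsdmd (ENSMUSG00000022575, chr15:75862144-75867408), the pore former, had 32.5 CPM (31.5 to 33.5) in Con, 51.9 CPM (50.5 to 53.4) in Veh.LPS.0 and 55.7 CPM (53.2 to 58.2) in DHA.LPS.0. It had 47.0 CPM (45.6 to 48.4) in Veh.LPS.1, 43.7 CPM (41.4 to 46.0) in DHA.LPS.1, 29.7 CPM (28.4 to 31.2) in Veh.LPS.4 and 31.1 CPM (28.8 to 33.5) in DHA.LPS.4. Both 4 h libraries were below the 0 h libraries of their arm and close to Con. Over the 7 libraries its level followed that of Il18, with a Pearson correlation of 0.87 on log2(CPM + 1), which is a description of 7 points that share the order of the treatments.

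**Figure D1:**
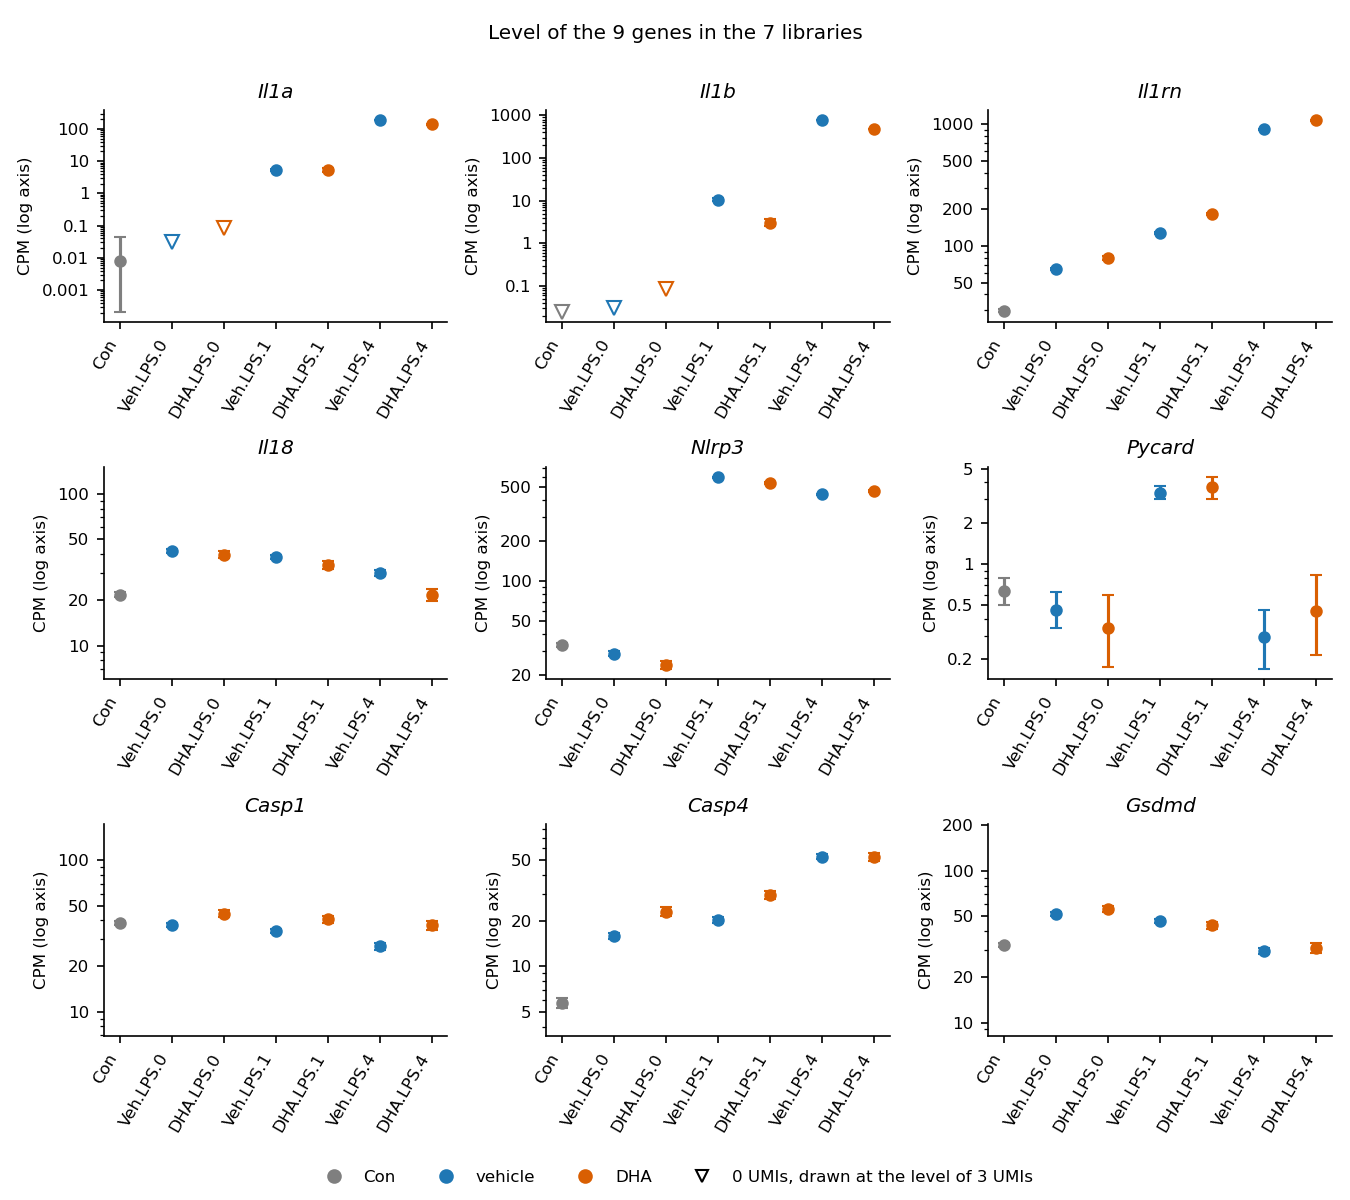
CPM of each gene (log axis, a separate scale for each gene) in the 7 libraries, with exact 95% Poisson intervals. Open triangles mark libraries with 0 UMIs and are drawn at the level of 3 UMIs. Il1a and Il1b appear with LPS, Nlrp3 and Pycard are highest at 1 h, Il1rn and Casp4 are highest at 4 h, and Il18, Casp1 and Gsdmd stay between 21.5 and 55.7 CPM.

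A gene was counted as higher or lower where its CPM differed by more than 1.5-fold and one or both libraries had a UMI in 25% of their cells or more. With 1 library per condition this is a limit on size and not a test. Veh.LPS.0 against Con is called serum reduction below, although BSA and time in culture differ too. It put 4 of the 6 genes that met the share limit on the higher side, Il1rn, Il18, Casp4 and Gsdmd, and none on the lower side. Of all 8252 genes compared 9.31% were on the higher side and 7.76% on the lower. In Veh.LPS.1 against Veh.LPS.0, the first hour of LPS, 2 of 6 were higher, Nlrp3 and Il1rn, and none lower, against 4.15% higher and 4.24% lower among 8089 genes. In the DHA arm (DHA.LPS.1 against DHA.LPS.0) 2 of 6 were higher and none lower, against 4.66% and 4.97%. Il1a, Il1b and Pycard are outside these 1 h counts because too few cells held a UMI.

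After 4 h of LPS (Veh.LPS.4 against Veh.LPS.0) 5 of 8 genes were higher, Il1a, Il1b, Il1rn, Nlrp3 and Casp4, and Gsdmd was lower, where 10.2% of 8385 genes were higher and 38.3% lower. In the DHA arm (DHA.LPS.4 against DHA.LPS.0) 5 of 8 were higher and 2, Il18 and Gsdmd, lower, against 9.64% and 33.6%. From 1 h to 4 h (Veh.LPS.4 against Veh.LPS.1) 4 were higher, Il1a, Il1b, Il1rn and Casp4, and Gsdmd was lower, against 7.98% and 29.3%. The size of the lower side in these comparisons depended in part on the scaling. With TMM factors 1839 genes were still lower in Veh.LPS.4 against Veh.LPS.0, in place of 3209. The median log2 ratio of all genes compared was -0.36 in Veh.LPS.4 against Veh.LPS.0 and 0.05 with TMM factors, and the genes past the limits went from 21.1% higher to 48.5% higher. For DHA.LPS.4 against DHA.LPS.0 the median went from -0.29 to 0.005 and the share from 22.3% to 46.2%, and for Veh.LPS.4 against Veh.LPS.1 from -0.25 to 0.04 and from 21.4% to 45.6%. With TMM factors Gsdmd was no longer past 1.5-fold in any of these 3 comparisons, with its direction kept. Il18 in DHA.LPS.4 against DHA.LPS.0 had a log2 ratio of -0.89, and with median-of-ratios size factors, at -0.54, or with TMM factors over all genes it was no longer past 1.5-fold either. At 1 h the median went from -0.10 to 0.01 in Veh and from -0.12 to 0.005 in DHA, and the share higher from 49.5% to 65.2% and from 48.4% to 66.1%. The 5 genes higher at 4 h had ratios far above these shifts.

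DHA against Veh was compared at the same hour of LPS. Of the 8 genes that met the share limit at 4 h, Il1b alone was past 1.5-fold, with a ratio of 0.612 (0.599 to 0.625). Among 7672 genes 2.22% were higher and 2.42% lower. At 0 h none of 6 was past it, against 1.08% higher and 0.949% lower among 8434 genes. At 1 h none of 6 was past it, against 1.33% and 1.73% among 7794 genes. Too few cells held a UMI for Il1a, Il1b and Pycard to be counted at 0 and 1 h, and for Pycard at 4 h. At 1 h the Il1b ratio was smaller still, 0.290 (0.233 to 0.357). At full depth only 162 of 3073 cells of Veh.LPS.1 and 16 of 795 cells of DHA.LPS.1 held an Il1b UMI. With TMM factors the share higher went from 53.2% to 65.9% at 0 h and from 47.8% to 30.6% at 4 h, and the median log2 ratio at 4 h from 0.08 to -0.01.

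At 4 h Il1a and Il18 were lower with DHA, as Il1b was, and Il1rn was higher. Whether the sizes for Il1a and Il18 differ from that for Il1b was not tested, and the intervals of Il1a and Il1b are too narrow to compare them. Il1a had a ratio of 1.02 (0.850 to 1.21) at 1 h and 0.730 (0.702 to 0.760) at 4 h. Il18 had ratios of 0.942 (0.886 to 1.00), 0.885 (0.826 to 0.947) and 0.716 (0.646 to 0.793) at 0, 1 and 4 h. Il1rn was higher with DHA, with ratios of 1.24 (1.19 to 1.30), 1.42 (1.38 to 1.47) and 1.19 (1.17 to 1.20). At 0 h the direction of Il1rn turned with the barcodes used. The log2 ratio was 0.31 in kept cells, -0.10 with no limit on barcodes and -0.63 among barcodes with a mitochondrial share of 20% or more, scaled to their UMIs outside mitochondrial genes. Among the latter barcodes the Il1rn log2 ratio was 0.007 at 1 h and 0.84 at 4 h, in place of 0.51 and 0.25 in kept cells.

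Pycard never met the share limit, and none of the other inflammasome genes was past the limits between DHA and Veh at any hour. Nlrp3 had ratios of 0.817 (0.755 to 0.883), 0.906 (0.891 to 0.922) and 1.06 (1.04 to 1.09), and the last became a log2 ratio of 0.00 with TMM factors. Casp1 had ratios of 1.18 (1.12 to 1.26), 1.19 (1.11 to 1.27) and 1.38 (1.27 to 1.502). Casp4 had ratios of 1.44 (1.32 to 1.57) and 1.45 (1.34 to 1.57) at 0 and 1 h, just inside the limit, and 0.996 (0.930 to 1.07) at 4 h. Gsdmd lay between 0.930 and 1.07 at all 3 hours, and at 4 h 4 of 9 alternatives kept its direction, and the intervals of Pycard included 1 at each hour, from 0.355 to 1.41 at 0 h, 0.879 to 1.36 at 1 h and 0.640 to 3.62 at 4 h.

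**Figure D2:**
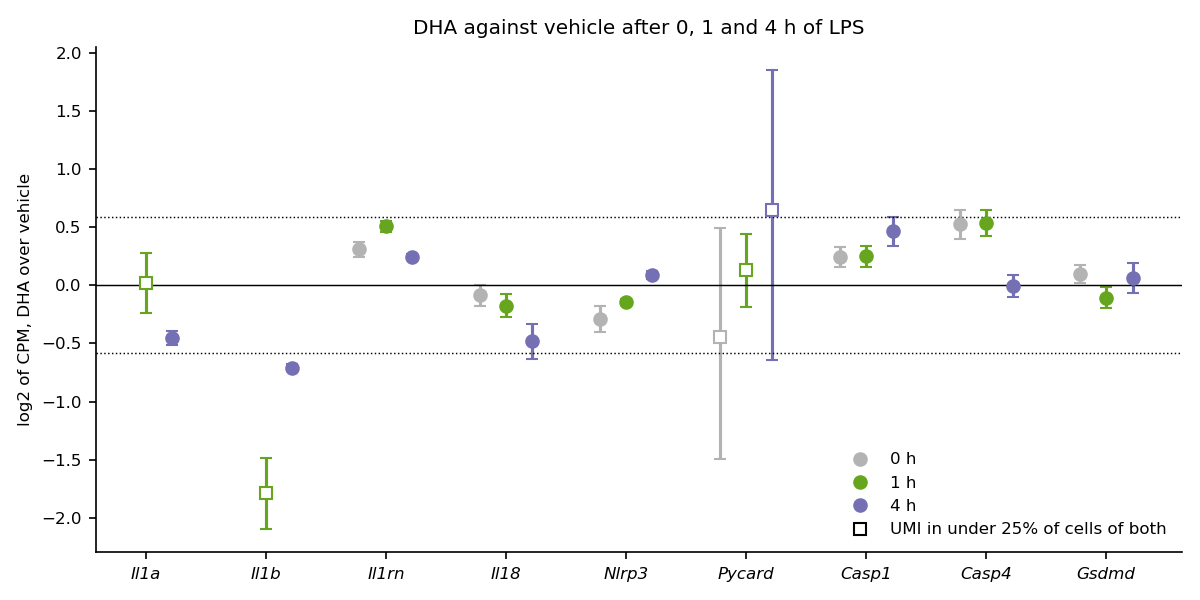
log2 of the ratio of CPM, DHA over Veh, for each gene at 0, 1 and 4 h of LPS, with exact 95% intervals. Open squares mark pairs of libraries in which under 25% of cells held a UMI, and dotted lines mark 1.5-fold. Il1b at 4 h is the one filled point beyond a dotted line, and Il1b at 1 h lies lower, at a log2 ratio of -1.79. Il1a and Il1b have no point at 0 h.

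The antagonist and the agonist therefore moved apart in these libraries. There were 1.15 UMIs of Il1rn for each UMI of Il1b in Veh.LPS.4 and 2.23 in DHA.LPS.4, a 1.94-fold difference (1.89 to 1.99) that does not depend on how the libraries are scaled. At 1 h these numbers were 12.1 and 59.5, a 4.91-fold difference (3.98 to 6.05). Both intervals leave out the spread of these genes between cells and are too narrow. The ratio of Il1rn to Il1a differed 1.62-fold between DHA.LPS.4 and Veh.LPS.4, and that of Il1a to Il1b 1.19-fold at 4 h. At 1 h the latter differed 3.51-fold, from 172 Il1a UMIs in DHA.LPS.1 of which 3 cells held 29, 29 and 26. In the barcodes removed for their mitochondrial share, the difference in Il1rn to Il1b at 4 h was 2.30-fold, in the same direction.

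Cells were next compared one by one, each thinned at random to 20000 UMIs, since a deeper cell shows more genes. Without thinning an Il1b UMI was found in 84.0% of the cells of Veh.LPS.4 and in 73.7% of those of DHA.LPS.4. After thinning the shares were 67.2% (64.2 to 70.1, 667 of 993 cells) and 68.2% (64.6 to 71.7, 472 of 692 cells), with intervals that overlap. The libraries parted at higher numbers of UMIs a cell, with at least 3 in 46.8% (43.7 to 49.99) of Veh cells and 38.7% (35.1 to 42.5) of DHA cells. The mean was 15.9 UMIs a cell in Veh.LPS.4 and 9.74 in DHA.LPS.4, the median 2 and 1, and the 90th percentile 47 and 29. At least 10 Il1b UMIs were held by 31.6% of Veh cells (28.7 to 34.6) and 22.5% of DHA cells (19.5 to 25.8). At least 50 were held by 9.57% (7.81 to 11.6) and 4.34% (2.94 to 6.13).

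Il1a showed the same shape at a lower level. A UMI was found in 44.4% (41.3 to 47.6) of thinned Veh.LPS.4 cells and 42.8% (39.1 to 46.6) of DHA.LPS.4 cells, and at least 10 UMIs in 11.1% (9.19 to 13.2) and 8.24% (6.30 to 10.5), whose intervals overlap. Il1rn was spread over nearly all cells, with a UMI in 98.3% and 98.4% and at least 20 UMIs in 37.8% (34.7 to 40.9) of Veh cells and 45.5% (41.8 to 49.3) of DHA cells. Nlrp3 was found in 97.7% and 98.8% of the cells, with medians of 7 and 8 UMIs.

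**Figure D3:**
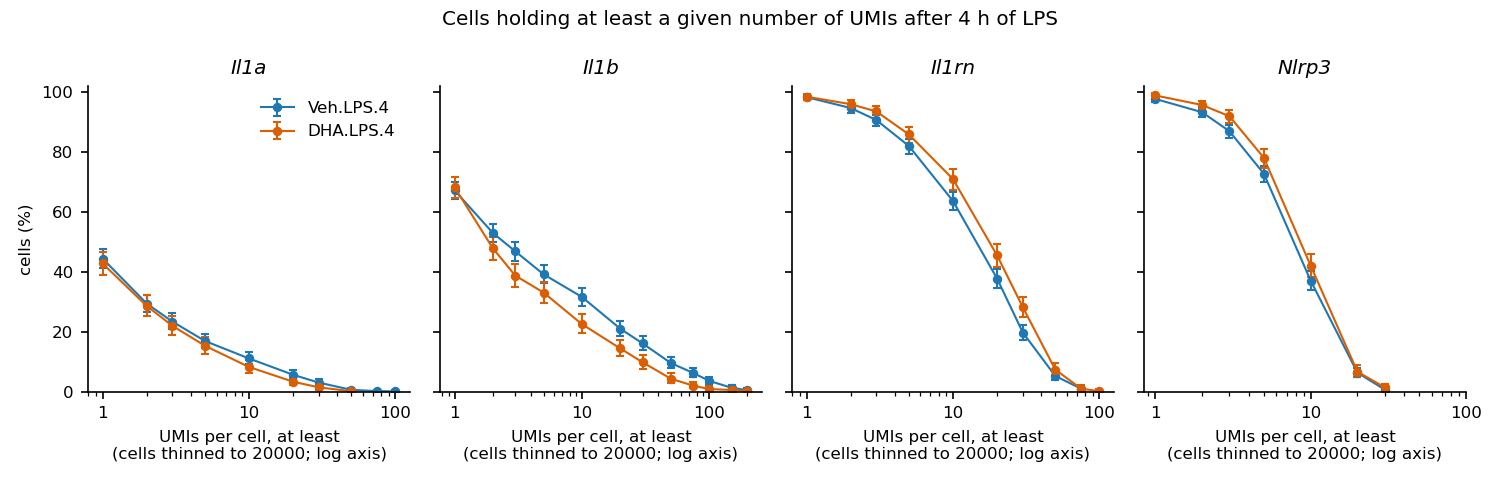
Share of cells (%) that hold at least a given number of UMIs (log axis) of Il1a, Il1b, Il1rn and Nlrp3 in Veh.LPS.4 and DHA.LPS.4, every cell thinned to 20000 UMIs, with exact 95% binomial intervals. The Il1b curves start together at 67.2% and 68.2% and part at higher numbers of UMIs, with 31.6% and 22.5% of cells at 10 or more, while the Il1rn curve of DHA lies above that of Veh.

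Il1a and Il1b were uneven among cells. In Veh.LPS.4 the 10% of cells with the most UMIs of a gene held 62.1% of all Il1b UMIs and 72.5% of all Il1a UMIs, and in DHA.LPS.4 64.7% and 70.8%. The top 10% held 29.2% and 27.4% of the Il1rn UMIs and 25.7% and 24.6% of the Nlrp3 UMIs. For the genes with fewer UMIs a cell that share also depends on the level, from 32.9% for Casp4 in DHA.LPS.4 to 100% for Pycard. The variance of the UMIs per thinned cell was 69.8 times the mean for Il1b in Veh.LPS.4 and 58.6 times in DHA.LPS.4. It was 24.8 and 16.9 times for Il1a, 13.7 and 14.3 times for Il1rn, and 4.57 and 4.32 times for Nlrp3. For Casp1, Casp4, Gsdmd, Il18 and Pycard it was between 0.994 and 1.46 times in these libraries, where counts drawn at random would give 1. At 1 h one cell of Veh.LPS.1 held 88 of the 1005 Il1b UMIs and one of DHA.LPS.1 held 28 of 98. Leaving out the top cell of each library kept the DHA to Veh log2 ratio of Il1b on the same side, between -2.14 and -1.73 over all alternatives at 1 h. The 1 h ratio of Il1a fell below 1 without the top cells, with the mean of the cells' CPM, without the mitochondrial limit and with no limit on barcodes, with log2 values from -1.93 to 0.06 over all alternatives, and carries no direction.

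Il1a and Il1b UMIs tended to lie in the same cells. In thinned Veh.LPS.4 cells an Il1a UMI was found in 56.4% (52.5 to 60.2) of the 667 cells with an Il1b UMI and in 19.9% (15.7 to 24.7) of the 326 cells without. In DHA.LPS.4 these shares were 53.0% (48.4 to 57.5) of 472 cells and 20.9% (15.7 to 26.9) of 220. In Veh.LPS.1 they were 20.5% (13.9 to 28.3) of 132 cells and 4.08% (3.39 to 4.86) of 2941. The Pearson correlation of log2(UMIs + 1) over cells was 0.72 in Veh.LPS.4 (993 cells) and 0.66 in DHA.LPS.4 (692 cells), a description of cells that share a library. Nlrp3 came next, with correlations to Il1b of 0.28 and 0.35 and means of 9.56 UMIs in cells with an Il1b UMI and 7.15 in cells without in Veh.LPS.4, and 10.3 and 7.82 in DHA.LPS.4.

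For Il1rn the correlations were 0.11 in Veh.LPS.4 and 0.20 in DHA.LPS.4. Its means were 18.5 UMIs in cells with an Il1b UMI and 18.0 in cells without in Veh.LPS.4, and 22.8 and 20.1 in DHA.LPS.4. For Il18, Casp1, Casp4, Gsdmd and Pycard the correlations lay between -0.11 and 0.12. Casp1 was found in 34.3% (30.7 to 38.1) of Veh.LPS.4 cells with an Il1b UMI and in 42.3% (36.9 to 47.9) of those without. UMIs of Il1b, Nlrp3 and Casp1 were found together in 22.6% (20.0 to 25.3) of the thinned cells of Veh.LPS.4 and in 32.5% (29.0 to 36.1) of those of DHA.LPS.4, and Casp1 was the gene of the 3 whose share differed most, at 37.0% and 49.3%. UMIs of Nlrp3, Casp1 and Pycard were found together in at most 86 cells of a library, 2.80% (2.24 to 3.44) of Veh.LPS.1. That share cannot exceed the share with a Pycard UMI, which was 6.31% there, beside 98.8% for Nlrp3 and 48.6% for Casp1.

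**Figure D4:**
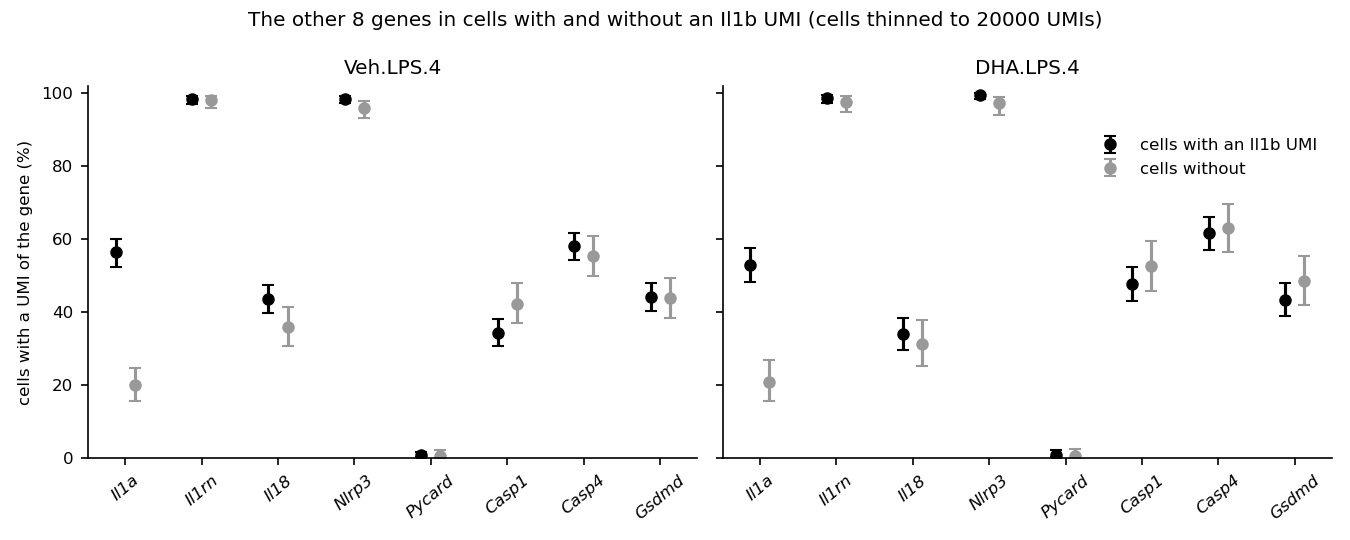
Share of cells (%) with a UMI of each of the other 8 genes, among cells with an Il1b UMI (black) and without (grey), in Veh.LPS.4 and DHA.LPS.4 thinned to 20000 UMIs, with exact 95% binomial intervals. Il1a is the gene whose shares lie far apart, 56.4% against 19.9% in Veh.LPS.4 and 53.0% against 20.9% in DHA.LPS.4.

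The barcodes removed for a mitochondrial share of 20% or more, which were taken at any depth and had medians of 5770 to 11781 UMIs, hold transcripts of these genes too. Their levels are given here as CPM of the UMIs outside mitochondrial genes, with the kept cells scaled the same way. Pycard had 9.88, 4.47, 65.8 and 4.39 CPM on this scale in the removed barcodes of Con and of Veh at 0, 1 and 4 h, and 0.690, 0.505, 3.61 and 0.313 in kept cells. With DHA it had 6.48, 65.97 and 5.42 in removed barcodes at 0, 1 and 4 h and 0.371, 3.98 and 0.487 in kept cells. The rise at 1 h was thus present in both kinds of barcode, and the removed barcodes were 8.85-fold to 18.2-fold higher in each of the 7 libraries. That ratio was exceeded by between 0.197% and 1.48% of the 10301 to 11149 genes a library with enough UMIs in both kinds of barcode.

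Il1a and Il1b went the other way at 4 h, and Il1rn did not. Il18 was lower in the removed barcodes of every library, at 0.580 to 0.691 of the level in kept cells. At 1 h Il1a was at 0.295 (0.194 to 0.434) in DHA.LPS.1, from 31 UMIs in removed barcodes, and at 1.15 (0.848 to 1.53) in Veh.LPS.1. Il1b had 400 CPM (388 to 412) on the same scale in removed barcodes and 853 in kept cells of Veh.LPS.4, and 311 (303 to 318) and 521 in DHA.LPS.4. Il1a had 100.4 (94.5 to 106) and 206 in Veh.LPS.4, and 72.2 (68.6 to 75.9) and 150 in DHA.LPS.4. The log2 ratio of DHA to Veh for Il1b among removed barcodes was -0.37, in place of -0.71 in kept cells. Il1rn had 1135 (1115 to 1155) and 983 in Veh.LPS.4, and 2028 (2009 to 2047) and 1163 in DHA.LPS.4. The part of these barcodes in the DHA comparisons was not tested.

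**Figure D5:**
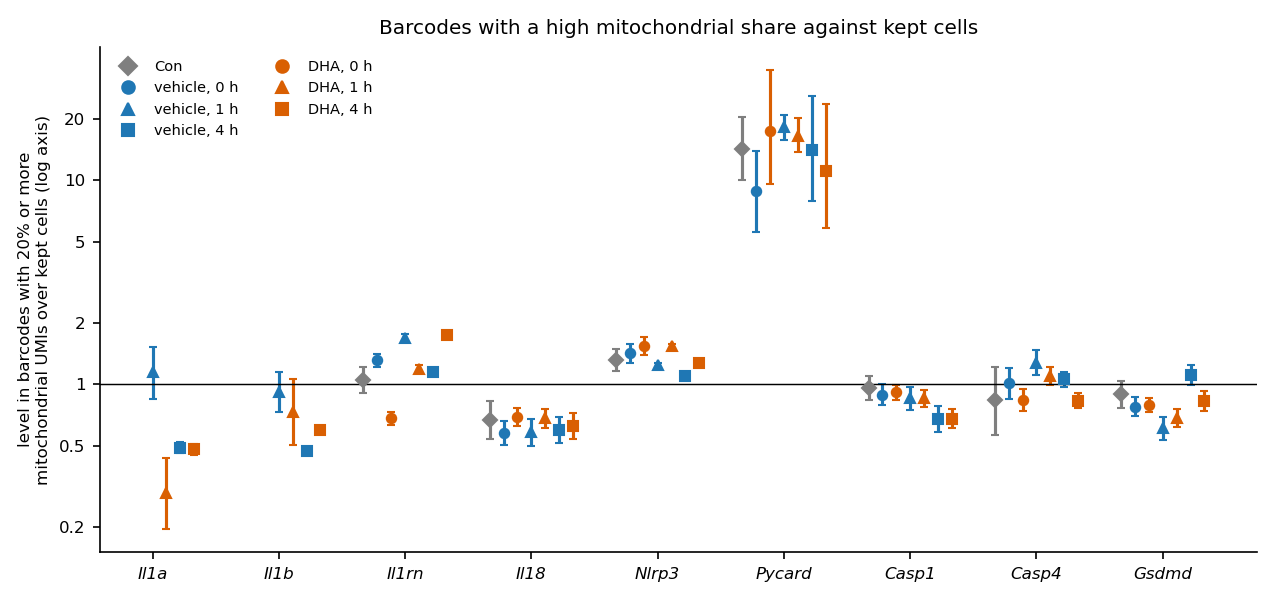
Level in barcodes with 20% or more mitochondrial UMIs divided by the level in kept cells (log axis), both as CPM of the UMIs outside mitochondrial genes, for each gene and library, with exact 95% intervals. Diamonds mark Con, circles, triangles and squares mark 0, 1 and 4 h, in blue for Veh and orange for DHA, and libraries with too few UMIs for a ratio are not drawn. Pycard lies at 8.85 to 18.2 in all 7 libraries, while Il1a and Il1b lie at 0.469 to 0.597 at 4 h.

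A wider list of 52 genes of the same pathway, 51 of them in the files, was read with the same limits. At 4 h of LPS in Veh, 5 of the 26 genes that met the share limit were higher and 10 lower, beside 10.2% higher and 38.3% lower among all genes, with a median log2 ratio of -0.33 beside -0.36. With TMM factors 10 were higher and 7 lower, beside 1731 higher and 1839 lower among all 8385 genes compared. The largest ratios were those of Il1f6, Il1rl1 and Irak3. Il1f6, another agonist of the interleukin-1 family, went from 2 UMIs without LPS to a level of 63.9 CPM in Veh.LPS.4, a ratio against Veh.LPS.0 of 3153 (872 to 26048), and had 50.5 CPM in DHA.LPS.4. At 1 h it had 1.44 CPM in Veh and 0.377 CPM in DHA, a ratio of 0.262 (0.132 to 0.473) from 136 and 12 UMIs. Its course thus resembled that of Il1b, from 0 or a few UMIs without LPS, through the lower 1 h level with DHA, to the high 4 h levels.

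Il1rl1, which encodes the receptor of interleukin-33, had 22.0 CPM in Veh.LPS.0 and 62.9 CPM in Veh.LPS.4. Irak3, a kinase-like brake on interleukin-1 receptor signalling, had 14.4 and 25.9 CPM, and Myd88 and Irak2, its partners in that signalling, were the other 2 that were higher. The receptor gene Il1r1 itself had at most 3 UMIs in any library and the decoy receptor Il1r2 at most 2. Among the lowest ratios were those of Sigirr, an inhibitory receptor, with 9.80 CPM in Veh.LPS.0 and 2.12 CPM in Veh.LPS.4, and of Nlrp10, with 13.8 and 3.498 CPM. Myd88, Irak2, Il1r1 and Il1r2 were named after their values were seen.

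Between DHA.LPS.4 and Veh.LPS.4, 1 of 21 genes of the wider list was higher and none lower, beside 2.22% and 2.42% of all genes. It was Ninj1, which ruptures the cell membrane late in lytic death, at 157 CPM with DHA and 103 CPM without, a ratio of 1.53 (1.47 to 1.60) at the edge of the limit. Of 22 genes none was past the limits between DHA.LPS.1 and Veh.LPS.1. At 0 h 1 of 26 was lower with DHA, beside 0.949% of all genes. It was Il18rap, a subunit of the interleukin-18 receptor, at 15.4 and 23.2 CPM. With TMM factors neither Ninj1 nor Il18rap was past the limits. At 1 h of LPS in Veh 2 of 23 were lower, Txnip and Gsdme, beside 4.24% of all genes. After serum reduction 4 of 25 were higher and 2 lower, beside 9.31% and 7.76% of all genes. Il18rap, Txnip and Gsdme were named after their values were seen.

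The genes whose levels ran most like a member over the 7 libraries were found among 8758 genes by the Pearson correlation of log2(CPM + 1). The closest to Il1b were Pcdh7, Srgn and Sod2, and those closest to Il1a were Mrpl52, Tlr2 and Slc9a4, all with correlations of 0.99 to 1.00. Klf7, Tns3 and Ext1 were closest to Il1rn, Gm12840, Pde4b and Socs3 to Nlrp3, and Hint3, Prkch and BC028528 to Il18. Correlations over 7 libraries were above 0.95 for 150 genes with Il1b, 165 with Il1a, 162 with Il1rn, 59 with Nlrp3 and 20 with Il18, and they mostly restate which hours were high. Socs3, an inhibitor of cytokine signalling, had 14.7, 164 and 103 CPM in Veh at 0, 1 and 4 h, the early peak seen for Nlrp3, and Tlr2, a receptor for bacterial lipoproteins, had 52.7, 81.5 and 187 CPM, the late course of Il1a.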

How the data were processed

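Single cell 3′ RNA libraries (10x, v3 chemistry) of 7 conditions were used, 1 each. The authors deposited UMI counts per gene and barcode from Cell Ranger, version 3.1.0 per the file headers and the submitters' notes, with the mm10 build. The paper's methods name another version. The deposited counts were not normalized, and barcodes outside the limits used here were still in the files. Cells with more than 20000 UMIs, at least 2000 genes and under 20% mitochondrial UMIs were kept, the limits of the paper's methods. No doublet caller was run.

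UMIs were summed per library and scaled to CPM. Levels have exact Poisson intervals and ratios and shares exact binomial ones, and a count of 0 was set to 3 counts for bounds. Intervals of ratios between 2 genes are normal approximations on the log scale. No test between conditions was made, because each has 1 library, and the labels do not say whether a library pools wells. Shares and values per cell used cells thinned to 20000 UMIs without replacement. The ratio script was tested on simulated data. Python 3.11.15, numpy 2.4.6, scipy 1.17.1, R 4.3.3 and edgeR 4.0.16 (TMM factors) were used.

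The 9 genes, the wider list, the limits and the alternatives were chosen with earlier results of these data known. Named genes of the wider list are the up to 3 highest and 3 lowest ratios past the limits in Veh.LPS.4 against Veh.LPS.0 and DHA.LPS.4 against Veh.LPS.4. One gene this rule names is not reported here. Gene positions are from RefSeq (GRCm38.p6).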

Additional observations from a re-analysis of the deposited data

Results flagged for a closer look

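The DHA to Veh ratio of Nlrp3 lay on different sides of 1 at different hours, each with an interval that leaves out 1: 0.817 at 0 h, 0.906 at 1 h and 1.06 at 4 h. That of Gsdmd was 1.07 at 0 h and 0.930 at 1 h. The intervals of Nlrp3 at 1 and 4 h leave out the spread between cells and are too narrow. Whether the effect differs between hours was not tested, since each hour has 1 library per arm. With TMM factors the 4 h log2 ratio of Nlrp3 was 0.00, and over all alternatives that of Gsdmd ran from -0.19 to 0.14 at 0 h and from -0.42 to 0.07 at 1 h.

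In the barcodes removed for a mitochondrial share of 20% or more, 3 genes stood more than 1.5-fold above the kept cells of an LPS library and above the removed barcodes of Con and Veh.LPS.0. These were Pycard, 18.2-fold in Veh.LPS.1 and 16.6-fold in DHA.LPS.1, Il1rn, 1.69-fold in Veh.LPS.1 and 1.74-fold in DHA.LPS.4, and Nlrp3, 1.54-fold in DHA.LPS.1. Shares of genes with a still higher ratio were taken over genes with enough UMIs in both kinds of barcode. These were 10580 genes in Veh.LPS.1, 11031 in DHA.LPS.1 and 10641 in DHA.LPS.4. The shares were 0.265% and 0.227% for Pycard, 21.4% and 15.7% for Il1rn and 22.9% for Nlrp3. For Pycard the removed barcodes were also higher in the libraries without LPS, 14.3-fold in Con, 8.85-fold in Veh.LPS.0 and 17.5-fold in DHA.LPS.0. In the same libraries the ratio was 1.31, 1.42 and 1.54 for Nlrp3 and 1.05, 1.31 and 0.680 for Il1rn.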

How the results depend on the processing

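Of 90 recomputed counts of genes past the limits, 81 stayed within 1.5 times the reported count, and 662 of 689 recomputed ratios kept their direction. The 81 include counts of 0 that stayed 0 for DHA against Veh at 0 and 1 h. They also include the fall from 7 to 5 in DHA.LPS.4 against DHA.LPS.0 with median-of-ratios size factors, where Il18 and Gsdmd dropped out. A limit of 2-fold gave 2 genes for serum reduction (Il1rn and Casp4), 1 for Veh.LPS.1 against Veh.LPS.0 (Nlrp3) and 0 for DHA.LPS.4 against Veh.LPS.4. At that limit 278 of 8252 genes compared were higher and 60 lower, 174 and 91 of 8089, and 14 and 67 of 7672. Without the limit on the share of cells the count was 5 for 1 h of LPS in Veh and 5 in DHA, where Il1a, Il1b and Pycard joined, 1 for DHA.LPS.1 against Veh.LPS.1 (Il1b) and 2 for DHA.LPS.4 against Veh.LPS.4 (Il1b and Pycard). This setting compared the genes with at least 10 UMIs in either library. Among them 1159 were higher and 1628 lower for 1 h of LPS in Veh, and 950 and 1377 in DHA. For DHA against Veh these counts were 616 and 795 at 1 h and 791 and 811 at 4 h. The number of genes compared is not given for this setting, so these counts cannot be read as shares. With the mean of the cells' CPM, 1 gene was past the limits in DHA.LPS.0 against Veh.LPS.0 (Casp4), where 96 of 8434 genes compared were higher and 82 lower. With no limit on barcodes 3 were past them in DHA.LPS.4 against Veh.LPS.4, all lower (Il1a, Il1b and Il18). Among the genes that then met the share limit, whose number is not given, 163 were higher and 318 lower, with a median log2 ratio of -0.18. As reported, these values were 170, 186 and 0.08, among 7672 genes. The Il1rn to Il1b difference at 4 h was 2.01-fold with a limit of 10000 UMIs and 2.30-fold in removed barcodes alone. One ratio past the limits reversed: Gsdmd in Veh.LPS.4 against Veh.LPS.1 had a log2 ratio of 0.21 among removed barcodes, in place of -0.66, and the cause was not tested. The values for removed barcodes alone and those without the top cell were chosen after seeing the data. The fewest cells, 692, and the shallowest total, 22045775 UMIs, limit DHA.LPS.4, where Pycard rested on 10 UMIs. The labels carry no replicate numbers to pair. A fit of DHA with the hour as a block over the 3 pairs of Veh and DHA libraries was not run, since it would take the difference to be alike at every hour.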
